A study of Drosophila melanogaster with 64 samples.

Results

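Replacement and variant histones are made outside the bulk synthesis of histones that goes with DNA replication, and they mark particular kinds of chromatin. 6 genes of this kind were followed, chosen by symbol from the 17606 genes of the count table: His3.3A and His3.3B, His2Av, His4r, BigH1 and cid. All 6 passed the filter on low counts in every comparison made, and all 6 were lower in adult than in larval testes.

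Nucleosomes of dividing cells are filled mainly with histones from a cluster of repeated genes that is active during replication. Replacement histones are transcribed outside that window from single genes with polyadenylated mRNAs, and are loaded by dedicated chaperones. H3.3 takes the place of H3 at active genes, and Drosophila males that lack both H3.3 genes are sterile. In spermatids most histones are removed and protamine-like proteins pack the DNA.

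His3.3A (FBgn0014857) lies on 2L at 5055058 to 5056149, on the plus strand, and its exons span 1002 bases. His3.3B (FBgn0004828) lies on the X at 9152523 to 9156669, on the minus strand, with 2552 exon bases. Both encode the same H3.3 protein. His2Av (FBgn0001197; 3R, 26866929 to 26869220, plus strand) encodes the only H2A variant of the fly, which does the work of both H2A.Z and the damage-marked H2A.X of mammals. His4r (FBgn0013981; 3R, 14625755 to 14626614, plus strand) is a replacement gene for H4 whose product is the same as that of the clustered H4 genes. BigH1 (FBgn0038252; 3R, 14663450 to 14664822, plus strand) encodes the linker histone of early embryos and germ cells, and cid (FBgn0040477; 2R, 13485617 to 13486631, plus strand) encodes the H3 variant CENP-A, which marks centromeres. Coordinates are those of the count table and are the same for all 6 genes in the Ensembl BDGP6 annotation, while the build behind the counting is not given in the sources used. Among the 6, His3.3A overlapped another gene, by 168 bases with Nepl3 on the opposite strand, which had 5550 counts over all libraries.

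Poly(A) RNA was counted in 64 libraries of dissected Drosophila melanogaster testes from 8 lines at 2 stages, with 4 pools of testes in each of the 16 groups. The lines were an irradiated parental stock and 7 lines with a reciprocal translocation between the X and chromosome 2, written T(1;2). By the labels, males of BM4 and BM21 are fertile and those of the other 5 lines (BM46, BM24, BM6, BM5 and BM1) are sterile. Each translocation line stands for 1 event, so a value of a line cannot be told apart from the value of that single rearrangement and its background.

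Every line carried the Dp(1;1)scV1 chromosome with the markers that the labels give as {gamma}2 {gamma}+ sc+ scV1, then su(wa) wa, then cv v f. The parental stock is labelled C(1)M4, {gamma} over that chromosome. BM4 and BM21 are labelled C(1)M4, {gamma} over T(1;2)BM4 or T(1;2)BM21, and the sterile lines FM7i, P{ActGFP}JMR3 over T(1;2)BM1, T(1;2)BM5, T(1;2)BM6, T(1;2)BM24 or T(1;2)BM46. The stock in which a line was kept and its sterility class therefore split the lines in the same way and cannot be told apart. Adult males were 1 to 5 days old, with 20 testes in a pool after the seminal vesicle had been taken off. Larvae were late in the third instar (L3), with 15 testes in a pool after enzymes had removed the fat body. The labels do not say whether pools came from separate crosses, so p-values of tests over libraries measure the spread between pools, which may be technical. Where the line is the replicate, p-values measure the spread between lines. By the well codes in the column names, L3 libraries were in rows A to C and adult libraries in rows C to F. No line had the same row at both stages, so stage within a line cannot be told apart from row.

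L3 libraries held 8961413 to 21275143 counts and adult libraries 20387 to 24650332. Adult BM6 replicate 3 and adult BM24 replicates 2 and 3 had 20387 to 233047 counts, which is too few for levels in counts per 1000000 (CPM), and are left out below unless named. The other 61 libraries held at least 2971832. Markers of germ cells, spermatogonia, spermatocytes and spermatids were present in every one of these 61 libraries, with none at 0. In 7 adult libraries (replicates 2 and 3 of BM4, replicate 4 of BM21, replicates 1 and 4 of BM1, and replicates 1 and 2 of BM6) transcripts of the accessory gland, which lies next to the testis, summed to 759 to 8028 CPM over 11 genes. Within a group no library repeated another, with a chi-square per degree of freedom of 2.43 to 60.7 in the 88 pairs. Libraries of different groups were not compared in this way.

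His3.3A was the most abundant of the 6 per exon length in parental testes of either stage, and cid the least. By CPM without that division His3.3B was the highest, at a mean of 313 in L3 and 267 in adult parental testes. On the scale of CPM per kilobase, L3 parental testes held 227 ± 9.27 of His3.3A (SD, n = 4), 204 ± 21.1 of His4r, 178 ± 5.11 of His2Av, 122 ± 2.68 of His3.3B, 118 ± 5.45 of BigH1 and 8.26 ± 0.989 of cid. In adult parental testes the levels followed the same order, at 163 ± 12.5, 152 ± 7.19, 138 ± 8.24, 105 ± 1.49, 65.1 ± 2.27 and 5.39 ± 1.18. In L3 testes the neighbours His3.3A and His4r, His4r and His2Av, and His3.3B and BigH1 lay within the sum of their SDs of each other. In adults this held for His3.3A with His4r and for His4r with His2Av. The 5 abundant genes had a higher level per length than 84.1% to 97.2% of 13447 genes, and cid than 44.7% in adults and 51.6% in L3. Of the 111 annotated copies of the clustered, replication-dependent histone genes, 104 were listed at 0 counts over all libraries, and the rest had 3419 counts together, 2820 of them in His2B:CG33868. Their mRNAs normally lack the poly(A) tail these libraries selected for, and the copies are nearly identical, so no ratio of variant to clustered histones is given here. Reads that match more than 1 gene may likewise be missing from the counts of His4r and the H3.3 genes, and no source used here says how they were handled.

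**Figure D1:**
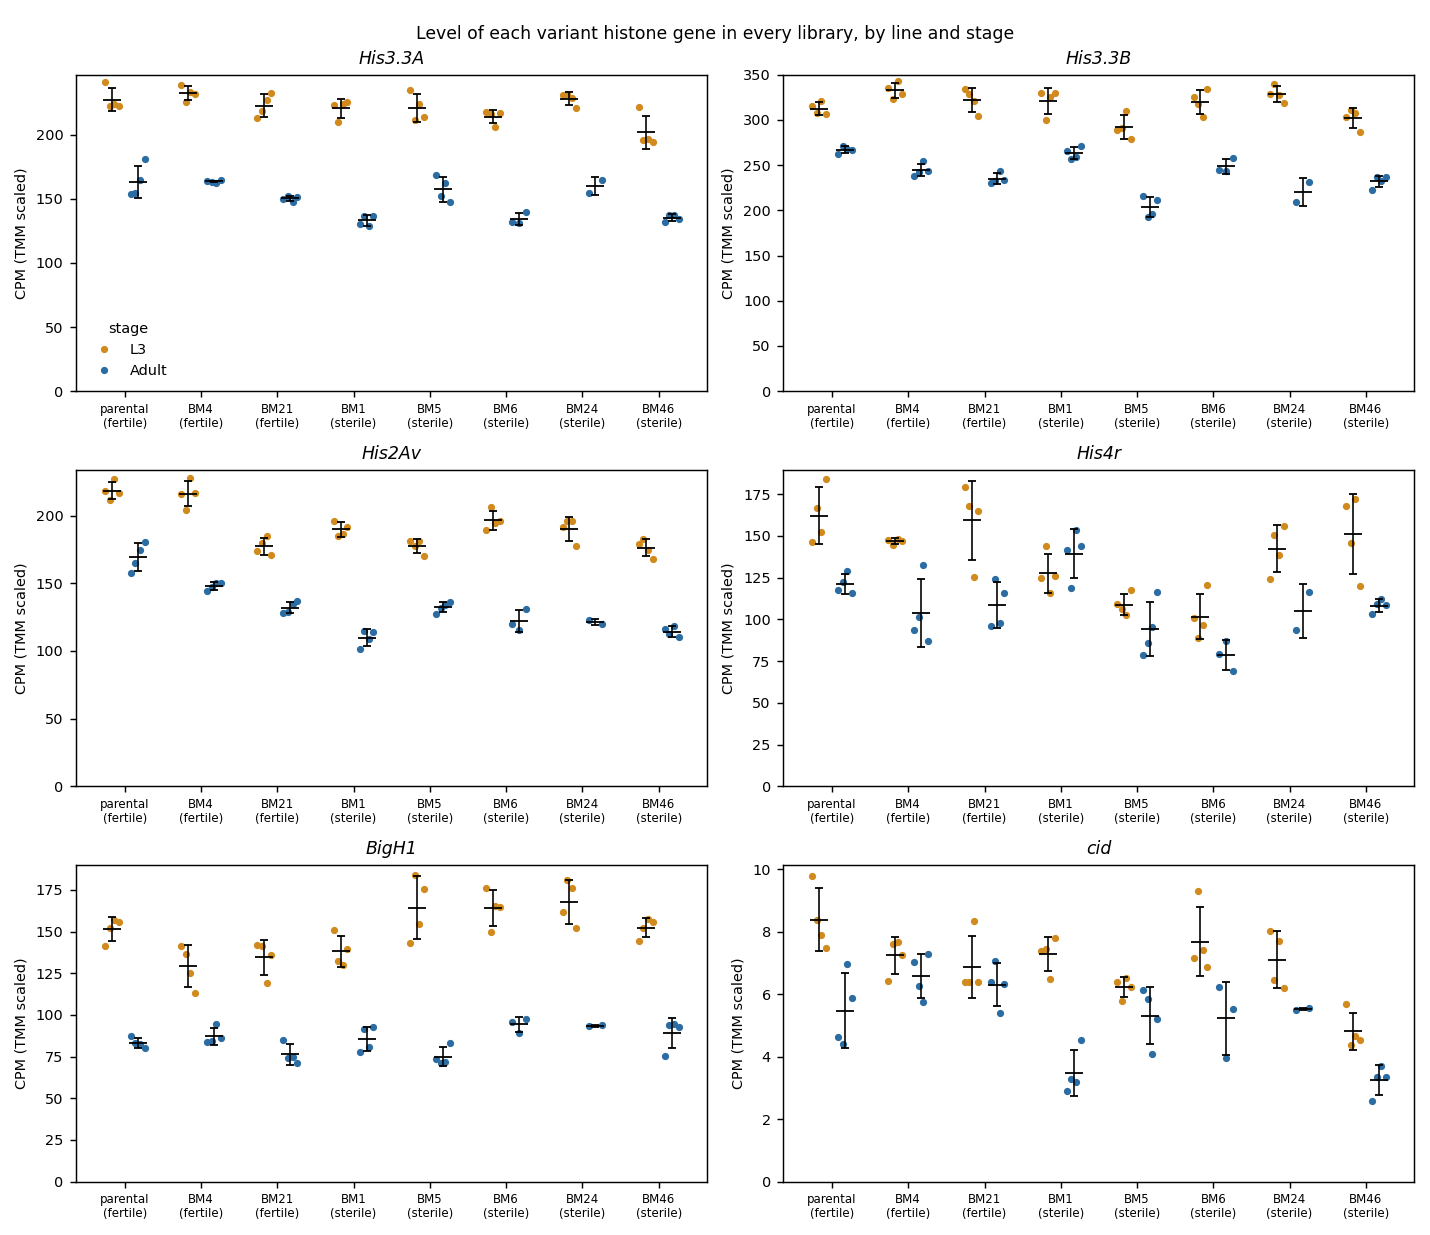
CPM (TMM scaled, linear axis from 0) of the 6 variant histone genes in the 61 libraries, by line (x axis) and stage (colour). Points are libraries and bars are means ± SD; adult means lie under the L3 means of the same line for each gene and line, with His4r in BM1 as the exception.

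The first comparison set adult against L3 testes, with the line as the replicate, and asked how the variant histones differ between a mature testis and a larval testis in which the first wave of germ cells is still in progress. All 6 genes fell: BigH1 most (log2 change −0.82 ± 0.05, SE), then His3.3A (−0.58 ± 0.04), His2Av (−0.58 ± 0.05), cid (−0.48 ± 0.12), His3.3B (−0.41 ± 0.04) and His4r (−0.37 ± 0.07). Adjusted p-values ran from 7.93e-08 for BigH1 to 0.00243 for cid (edgeR quasi-likelihood test, Benjamini-Hochberg adjustment over 14230 genes). Lower calls at this threshold of 0.05 took 38.3% of all genes tested, and calls in either direction 78.5%. The median change was −0.53 over the 6 genes and 0.04 over all genes. When libraries were scaled by their totals alone, the median of all genes moved to −0.39 and that of the 6 genes to −0.95. Against the median of all genes the 6 stood at −0.57 under either scaling. A change of scaling moves all genes by nearly the same amount, so this match was fixed in advance and is no test of the fall.

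Both H3.3 genes fell in every line. His3.3A was at 241, 222, 224 and 222 CPM in the L3 parental libraries, and at 154, 155, 164 and 181 in the adult ones. His3.3B was at 315, 307, 321 and 307 CPM in L3 and 262, 271, 268 and 267 in adults. For both genes every adult parental library was below every L3 parental library. Within lines, the change of His3.3A ran from −0.46 in the parental stock to −0.69 in BM1, and that of His3.3B from −0.20 in the parental stock to −0.58 in BM24. Each gene was called lower in 8 of 8 lines. Of 10842 genes tested in every line, 2909 (26.8%) were called lower in all 8, 37.2% in at least 6 and 40.6% in at least 5. Lower calls took 38.5% of all genes in the parental stock and in BM21, 39.2% in BM24, 39.8% in BM5, 40.1% in BM4 and BM6, 41% in BM1 and 41.5% in BM46, and calls in either direction 74.6% to 80.3%. Over all 8 lines the 32 L3 libraries ran from 195 to 241 CPM of His3.3A with a median of 223, and the 29 adult libraries from 129 to 181 with a median of 151. For His3.3B the L3 range was 279 to 343 with a median of 319.7 and the adult range 192 to 271 with a median of 242. No adult library of any line reached the lowest L3 library for either gene.

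Because both genes encode one protein, the share of H3.3 reads per exon length that came from the X-linked gene was followed as well. In parental testes His3.3B made up 39.1% ± 1.802 (SD, n = 4) of these reads in adults and 35.0% ± 0.860 in L3, with adult libraries at 36.7% to 40.8% and L3 libraries at 33.9% to 36.0%. The difference of 4.10 percentage points had an exact two-sided permutation p of 0.0286, the smallest that 4 against 4 libraries can give. With any 1 L3 library left out the difference per length was 3.71 to 4.41 points and no longer passed (exact permutation p = 0.0571 in each case). With any 1 adult library left out p stayed at 0.0286 (same test). In all these cases every adult library lay above every L3 library, and with so few libraries p moves in coarse steps. The share was higher in adults in 6 of 8 lines, by 7.35 points in BM1, 5.17 in BM6, 4.10 in the parental stock, 3.19 in BM46, 1.79 in BM21 and 0.998 in BM4, and lower by 1.02 points in BM24 and 0.487 in BM5. Over lines the mean difference was 2.64 ± 2.87 points (SD, n = 8; exact sign-flip permutation p = 0.0469, two-sided).

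**Figure D2:**
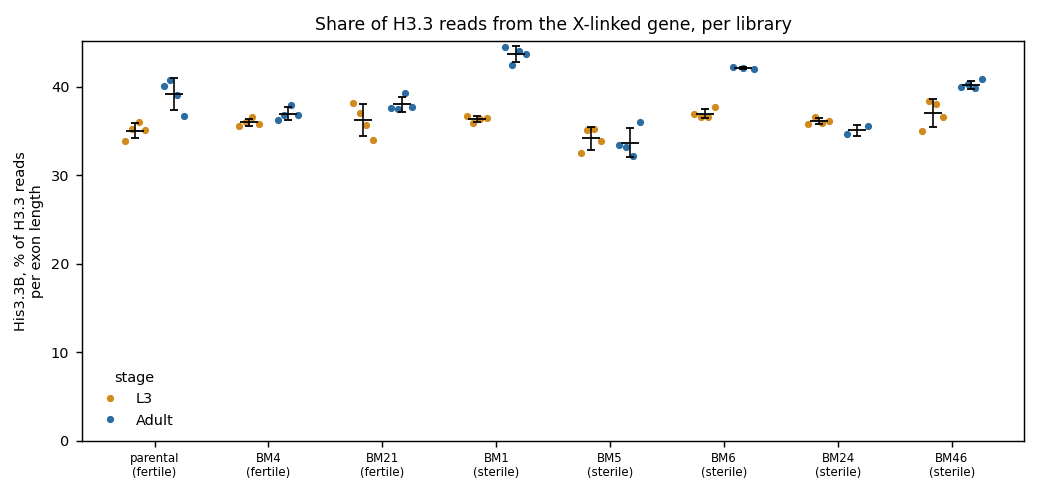
Share of H3.3 reads per exon length that came from His3.3B (percent, axis from 0) in each library, by line and stage. Points are libraries and bars means ± SD; the adult share runs from 33.7% in BM5 to 43.7% in BM1, while L3 means lie between 34.2% and 37.0%.

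His2Av was at 218, 212, 227 and 216 CPM in the L3 parental libraries and at 158, 165, 175 and 181 in the adult ones, without overlap. It was called lower in 8 of 8 lines, as were 26.8% of all genes, by −0.34 in the parental stock to −0.75 in BM1. Over all lines the L3 libraries ran from 168 to 228 CPM with a median of 190.5 and the adult libraries from 101 to 181 with a median of 129, and these ranges did overlap, since the highest adult parental library exceeded the lowest L3 libraries of BM5, BM21, BM24 and BM46.

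His4r had the smallest fall of the 6 over lines, and was the only one of them with a line of the opposite sign, though not with scaling by library totals alone. The L3 parental libraries held 146, 167, 152 and 184 CPM and the adult parental libraries 118, 122, 129 and 116, without overlap. The gene was called lower in 6 of 8 lines, by −0.38 in BM6 to −0.53 in BM21. The BM24 call, at −0.44 (adjusted p = 0.00329), was lost without adult BM24 replicate 1 (−0.28, adjusted p = 0.0596). In BM5 the change was −0.19 ± 0.10 (adjusted p = 0.109), and −0.31 (adjusted p = 0.00204) without adult BM5 replicate 4. In BM1 it had the opposite sign, at 0.16 ± 0.09 (adjusted p = 0.116), with 125, 144, 115 and 126 CPM in L3 and 141, 119, 153 and 144 in adults. Without adult BM1 replicate 2, the lowest of the 4, the BM1 change was 0.25 (adjusted p = 0.0126). It was also called higher with DESeq2 (0.22, adjusted p = 0.0254) and with DESeq2 size factors in edgeR (0.22, adjusted p = 0.0462). With scaling by library totals alone it was −0.35 (adjusted p = 0.00407).

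BigH1 had the largest fall of the 6 over lines, and was called lower in all 8, as were 26.8% of all genes. It was at 141, 152, 157 and 156 CPM in L3 and 87.3, 82.8, 82.7 and 80.3 in adult parental libraries, and its changes ran from −0.53 in BM4 to −1.11 in BM5. Over lines, L3 libraries lay at 113 to 184 CPM (median 151) and adult libraries at 71.0 to 97.6 (median 84.4), so that no adult library reached any L3 library.

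The centromeric histone gene cid was counted at low depth, with 70 to 186 counts in an L3 library and 16 to 128 in an adult one. It was at 9.78, 8.37, 7.91 and 7.47 CPM in L3 and at 4.64, 4.39, 6.98 and 5.87 in adult parental libraries, without overlap. It was called lower in 5 of 8 lines, most in BM1 (−1.03 ± 0.15), and with the highest adjusted p among these calls in BM24 (0.0420), where leaving out L3 BM24 replicate 1 or 3 or adult BM24 replicate 1 or 4 ended the call (adjusted p = 0.0851 to 0.141). The BM6 call was lost without the libraries rich in accessory gland transcripts (−0.51, adjusted p = 0.0746). In BM4, BM21 and BM5 the changes were −0.10 ± 0.11, −0.10 ± 0.13 and −0.21 ± 0.14, with adjusted p-values of 0.443, 0.487 and 0.173. In all, 43 of 48 tests of a gene within a line were called, all of them lower.

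**Figure D3:**
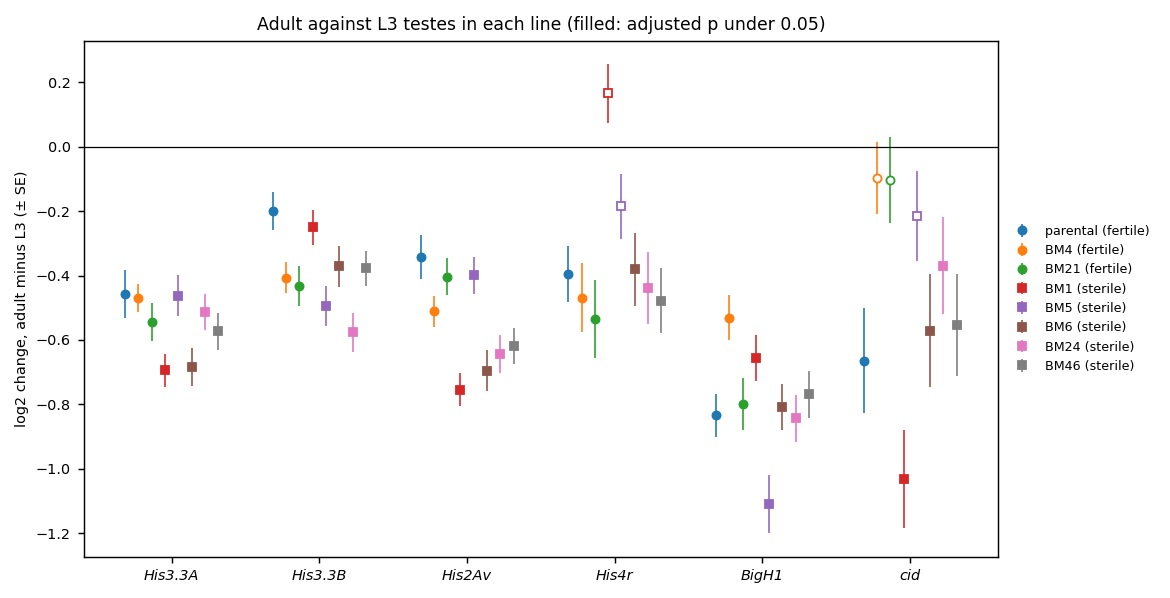
Log2 change from L3 to adult testes (y axis, ± SE) of each variant histone gene in each line; filled symbols have an adjusted p under 0.05, circles are fertile and squares sterile lines. BigH1 lies lowest in most lines, and the 5 open symbols are His4r in BM1 and BM5 and cid in BM4, BM21 and BM5.

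The make-up of the samples moved with stage. Summed over their lists, 5 spermatocyte markers were at 323 to 419 CPM in L3 and 162 to 271 in adult libraries, 3 germline markers at 62.0 to 131 and 26.6 to 56.7, and 2 spermatogonial markers at 115 to 163 and 74.7 to 156. The 4 spermatid markers were at 2253 to 3365 CPM in L3 and 6815 to 10139.5 in adults, the 8 muscle markers at 3.296 to 10.7 and 61.1 to 355, and the 7 fat body markers at 90.2 to 2146 and 47.3 to 1076. Their part in the changes of the variant histones was not tested. In bulk RNA, fewer cells of a type and less RNA per cell cannot be told apart.

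The partners that load and remove these histones were mostly lower in adults as well. Of all genes tested, 38.3% were called lower in adults and 78.5% in either direction. All 15 chaperones and remodellers of H3 and H3.3 fell (median −0.67, with 14 of 15 called under DESeq2 size factors), most of all dre4, which encodes the large subunit of the FACT complex (−1.08 ± 0.06, adjusted p = 2.27e-08). The H3.3 chaperone genes Hira (−0.62 ± 0.06), yem (−0.62 ± 0.07), Daxx (−0.72 ± 0.08) and XNP (−0.67 ± 0.06) were among them. Of 19 genes of the complexes that exchange H2Av, 16 fell and 2 rose (median −0.72); Gas41 fell most (−1.05 ± 0.07) and Arp5, a subunit of the INO80 complex, rose most (0.59 ± 0.06), while dom, the ATPase that loads H2Av, changed by −0.50 ± 0.05. With library totals alone 17 fell and 1 rose.

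Of 12 centromere and kinetochore genes, 11 fell (median −0.69), led by Nlp (−1.14 ± 0.06), a nucleoplasmin-like protein. The exception was cal1, the chaperone that loads CENP-A, at −0.04 ± 0.05 (adjusted p = 0.507); with library totals alone it was called lower too. Of 7 genes of the histone locus body and of histone mRNA processing, 5 fell, most of all mute (−0.93 ± 0.06), and Slbp, which binds the stem loop of clustered histone mRNAs, rose (0.45 ± 0.13, adjusted p = 0.00717). With library totals alone 6 of these fell and none rose. The 8 sperm nuclear protein genes moved the other way and all rose (median 0.75), from tHMG1 (0.22 ± 0.08) to ProtB, a protamine gene (0.93 ± 0.06). With library totals alone 6 rose and 1 fell. Among all genes tested 38.3% were called lower, and 51.2% of the calls in either direction were higher. With library totals alone 34.8% of the calls were higher.

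**Figure D4:**
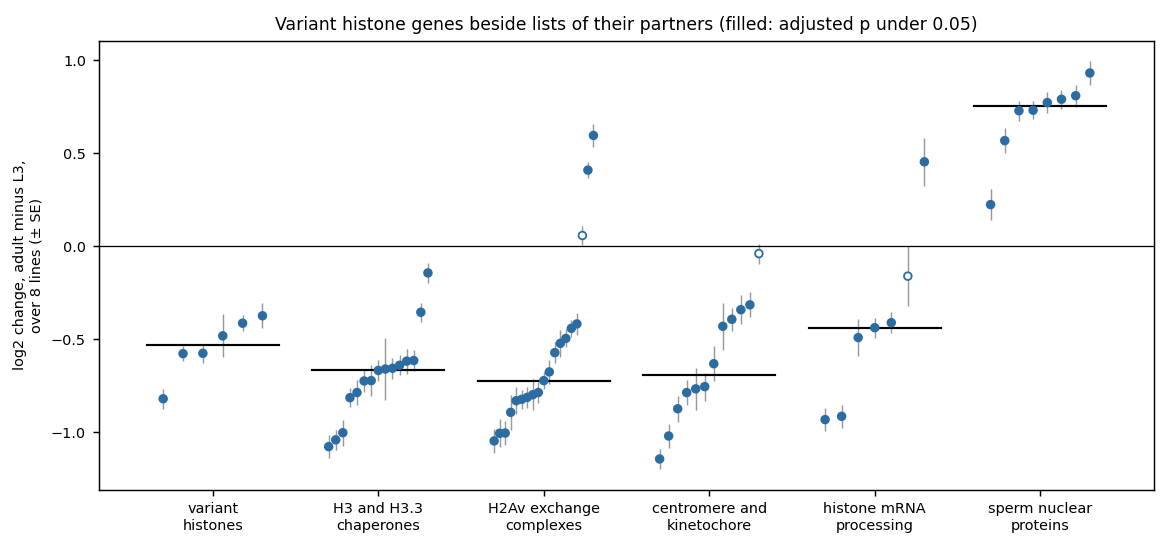
Log2 change from L3 to adult testes over 8 lines (y axis, ± SE) of the 6 variant histone genes and of 5 lists of genes that act with or replace histones; each point is a gene, filled where the adjusted p is under 0.05, and black lines are list medians. The variant histones, with a median of −0.53, lie on the side of the chaperones and exchange complexes, and sperm nuclear proteins on the other.

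The second comparison set each translocation against the parental stock, to find whether the rearranged lines differ in variant histone RNA. In adults His2Av was lower in all 7 translocation lines, sterile and fertile, while BigH1 was called in none, and the other 4 genes differed in particular lines. In all, 19 of 42 tests were called, all 19 lower. Of all genes tested, lower calls took 12.9% in BM4, 13.4% in BM21, 17.2% in BM24, 20.2% in BM5, 21.8% in BM46, 23.6% in BM6 and 28.9% in BM1, and calls in either direction 26.6% to 59.3%. In L3 testes 13 of 42 tests were called lower and 1 higher. There lower calls took 15.7% of all genes in BM21, 17.5% in BM4, 19.7% in BM24, 21% in BM1, 21.7% in BM6, 21.8% in BM46 and 21.9% in BM5, and calls in either direction 34.8% to 45.5%. The 7 tests of a stage share the 4 parental libraries, so they are not independent of each other. Among adults only the parental libraries had well codes of row C, and the translocation lines were in rows D to F. Adult differences from the parental stock, those of His2Av included, therefore cannot be told apart from a difference between rows. In L3 the parental stock shared row A with BM1 and BM4 only. In adults parental replicate 4 had 2971832 counts, the fewest of the libraries tested.

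His2Av, the H2A variant, was at 144, 147, 149.9 and 150.4 CPM in adult BM4, and at 128, 129, 135 and 137 in BM21. Both fertile lines lay below the parental libraries, whose values of 158, 165, 175 and 181 are given above. Among sterile lines BM5 held 127, 132, 134 and 136 CPM, BM6 119.7, 115 and 131, and BM24 123 and 120.1. BM46 held 116, 113, 119 and 110.0 and BM1 101, 115, 109 and 114. No library of any translocation line reached the lowest parental library. The log2 changes were −0.18 ± 0.05 in BM4, −0.35 ± 0.05 in BM21, −0.35 ± 0.05 in BM5, −0.47 ± 0.05 in BM6, −0.47 ± 0.06 in BM24, −0.55 ± 0.05 in BM46 and −0.61 ± 0.05 in BM1. Adjusted p-values ran from 2.47e-10 in BM1 to 0.00701 in BM4; the BM4 call was lost with library totals alone (−0.14, adjusted p = 0.0948) and without the libraries rich in accessory gland transcripts (−0.18, adjusted p = 0.0694). Of 13103 genes tested, 333 (2.54%) were called lower in all 7 adult lines, and 1403 (10.7%) in at least 5 of them.

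The order of adult His2Av levels was parental, BM4, BM5, BM21, BM6, BM24, BM46 and BM1, of which parental and BM4, BM4 and BM5, and BM24 and BM46 did not overlap with their neighbour. Spermatogonial markers, summed over bam and bgcn, were at 138 to 156 CPM in adult parental libraries and 116 to 135 in BM4 and BM21. In the 5 sterile lines they were at 74.7 to 116, with the lowest mean in BM1 (80.6). Most of this sum was bgcn, at 69.2 to 145 CPM in adult libraries, against 5.19 to 10.6 of bam. The summed muscle markers went from 64.2 to 139 CPM in parental libraries to 195 to 355 in BM1. Other lists had another order. Summed spermatocyte markers had a mean of 221 CPM in adult parental libraries. Means were higher in BM21 (258), BM24 (254) and BM4 (242), and lower in BM6 (202), BM46 (200), BM5 (187) and BM1 (180). Summed germline markers had a parental mean of 38.0 CPM. They were higher in BM4 (52.4), BM21 (46.0) and BM24 (43.7), and at 35.4 to 37.9 in the other lines. The part of these cell types in the lower His2Av was not tested.

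In L3 testes the same gene was lower in 6 of 7 lines, by −0.15 in BM6 (adjusted p = 0.00341) to −0.30 in BM5 (adjusted p = 7.99e-07) and −0.30 in BM46. The libraries of BM4 held 216, 204, 228 and 217 CPM against 218, 212, 227 and 216 in the parental stock, and these overlapped (0.02 ± 0.04, adjusted p = 0.793). BM5 held 181, 177, 181 and 170.5 CPM and BM46 179, 182, 175 and 168. In these and the other 4 called lines every library was below every parental library. These 6 calls stood under each alternative tried. Of 12071 genes tested in L3, 781 (6.47%) were called lower in at least 6 of the 7 lines.

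The 19 genes of the H2Av exchange complexes were split in the same tests. In adults, 11 were lower and none higher in BM1 and 9 lower and 3 higher in BM6, but none was lower in BM4 and 1 was higher. In the other 4 lines 5 to 7 were lower and 1 to 3 higher. Over all genes tested in adults, lower calls took 28.9% in BM1, 23.6% in BM6, 12.9% in BM4 and values between these in most other lines. Higher calls took 13.7% to 30.4%. Medians ran from −0.29 in BM1 to 0.01 in BM4, against −0.18 to −0.61 for His2Av itself.

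His3.3B, the X-linked H3.3 gene, was lower in 5 adult lines, most of all in BM5 (215, 192, 196 and 211 CPM, −0.39 ± 0.04, adjusted p = 2.81e-08), where every library was below the parental 262, 271, 268 and 267. It was also called in BM24 (−0.27 ± 0.05), BM46 (−0.19 ± 0.04), BM21 (−0.18 ± 0.04) and BM4 (−0.12 ± 0.04, adjusted p = 0.0358). The BM4 call was lost without any of parental replicates 2, 3 and 4 or BM4 replicates 1, 2 and 4 (adjusted p = 0.0506 to 0.0878). It was also lost with library totals alone (adjusted p = 0.255), with no filter on low counts (0.0598) and with all libraries (0.316). The same held without the libraries rich in accessory gland transcripts (adjusted p = 0.168). In BM1 the gene stood at 266, 257, 259 and 271 CPM, overlapping with the parental libraries (−0.00 ± 0.04, adjusted p = 0.933); with library totals alone, which moved the median of all genes in that test by −0.12, it was called lower there (−0.13, adjusted p = 0.0148). In BM6 the change was −0.10 ± 0.04 (adjusted p = 0.0621).

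His3.3A, the H3.3 gene on chromosome 2, was lower in adult BM1 (130.2, 137, 129 and 137 CPM, −0.28 ± 0.05, adjusted p = 5.67e-05), BM6 (132, 131 and 140.0 CPM, −0.28 ± 0.05) and BM46 (132, 138, 137 and 135 CPM, −0.26 ± 0.05). All libraries of these 3 lines were below the parental 154, 155, 164 and 181. In the other 4 lines changes were −0.11 to 0.02. The BM6 call did not stand without the libraries rich in accessory gland transcripts (−0.24, adjusted p = 0.0724), which leaves 1 BM6 library that is assumed to vary like the other groups. Of the H3.3 genes, then, BM46 had both lower, BM1 and BM6 only His3.3A called, and BM5, BM24, BM21 and BM4 only His3.3B called. This division moved with the processing. His3.3B was also called in BM6 with library totals alone (−0.17, adjusted p = 0.00664) and without parental replicate 1 (adjusted p = 0.0498), and His3.3A in BM21 without parental replicate 1 (−0.14, adjusted p = 0.0490).

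The share of H3.3 reads per length from His3.3B lay above the parental 39.1% in some lines and below it in others. It was 43.7% ± 0.905 in adult BM1 (SD, n = 4) and 42.1% ± 0.113 in BM6 (n = 3), then 40.2% in BM46, 38.0% in BM21, 37.0% in BM4, 35.1% in BM24 (n = 2) and 33.7% ± 1.61 in BM5. BM1, BM6, BM24 and BM5 did not overlap with the parental libraries. Of 14 tests of a line against the parental stock, over both stages, the smallest adjusted p was 0.133 (exact two-sided permutation tests). The smallest unadjusted p that 4 against 4 libraries allow is 0.0286, which a line on its own cannot bring past the threshold after adjustment over 14 tests, so these tests leave the differences undecided.

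In L3 testes 2 of 14 tests of the H3.3 genes were called. His3.3A was lower in BM46 (221, 196, 196 and 195 CPM against 241, 222, 224 and 222, −0.16 ± 0.05, adjusted p = 0.00627), where all 4 libraries lay below the parental ones. His3.3B was higher in BM4 (0.12 ± 0.05, adjusted p = 0.0367), where 20.1% of all genes were called higher, a call that leaving out any of the parental libraries or BM4 replicate 1, 3 or 4 ended (adjusted p = 0.0501 to 0.122). The other 12 changes of the pair ran from −0.10 to 0.08.

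His4r, the replacement H4 gene, was lowest in BM6 at both stages. Adult BM6 held 79.3, 87.0 and 69.3 CPM against 118, 122, 129 and 116 in the parental stock (−0.62 ± 0.14, adjusted p = 0.000556), and L3 BM6 held 101, 88.7, 96.5 and 121 against 146, 167, 152 and 184 (−0.68 ± 0.11, adjusted p = 8.17e-06). Neither stage overlapped with its parental libraries. BM5 was lower in L3 (109, 106, 103 and 117 CPM, −0.58 ± 0.11) and in adults (−0.36 ± 0.13, adjusted p = 0.0231), but the adult call was lost without parental replicate 3 or BM5 replicate 1 or 2 (adjusted p = 0.0637 to 0.0867). BM1 was lower in L3 (−0.33 ± 0.11, adjusted p = 0.0174; 0.0832 without parental replicate 4 and 0.0587 without BM1 replicate 3), and in adults stood at 0.22 ± 0.12 (adjusted p = 0.133; 0.0455 without BM1 replicate 2, with a change of 0.31). In adult BM4 the change was −0.22 ± 0.12 with all 4 libraries and −0.35 (adjusted p = 0.0295) without replicate 3, the highest of 93.5, 101, 133 and 86.9 CPM.

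The linker histone gene BigH1 was called in no adult line, with changes of −0.15 in BM5 to 0.18 in BM6 (adjusted p = 0.0565). DESeq2 called it higher in BM6 (0.20, adjusted p = 0.0261). Without 1 library it was called in BM46 (0.18, adjusted p = 0.0334, without BM46 replicate 1) and in BM5 (−0.22, adjusted p = 0.0231, without BM5 replicate 4). In L3 it was lower in BM4 (141, 137, 125 and 113 CPM against 141, 152, 157 and 156, −0.20 ± 0.08, adjusted p = 0.0373), where the highest BM4 library and the lowest parental library were nearly equal; the call was lost without parental replicate 2, 3 or 4 or BM4 replicate 3 or 4 (adjusted p = 0.0531 to 0.117).

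The CENP-A gene cid was lowest in BM46 at both stages. L3 BM46 held 5.68, 4.36, 4.67 and 4.52 CPM against 9.78, 8.37, 7.91 and 7.47 (−0.78 ± 0.12, adjusted p = 2.45e-06), and adult BM46 2.59, 3.36, 3.71 and 3.36 against 4.64, 4.39, 6.98 and 5.87 (−0.71 ± 0.18, adjusted p = 0.00253). Groups did not overlap at either stage. In adult BM1 it was also lower (2.91, 3.28, 3.20 and 4.54 CPM, −0.61 ± 0.18, adjusted p = 0.00540), with 1 library above the lowest parental one, and in L3 BM5 (−0.41 ± 0.11, adjusted p = 0.00373). BM4 and BM21 had 0.31 ± 0.17 and 0.24 ± 0.17 in adults, neither called. Of the 12 centromere and kinetochore genes, 8 were lower in adult BM46, 8 in BM6, 7 in BM1, 4 in BM5, 3 in BM24, 2 in BM21 and 1 in BM4, while 2 were higher in BM4 and 1 in each of the others. In L3 testes 6 were lower in BM46, BM1 and BM5, 4 in BM6, BM24 and BM21, and 1 in BM4, while 4 were higher in BM4, 2 in BM6, BM24 and BM21, and 1 in BM46, BM1 and BM5. Over all genes tested in adults, lower calls took 12.9% in BM4, 13.4% in BM21, 21.8% in BM46 and up to 28.9% in BM1. Higher calls there took 13.7% to 30.4%. In L3 lower calls took 15.7% to 21.9% of all genes and higher calls 19.2% to 23.7%.

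**Figure D5:**
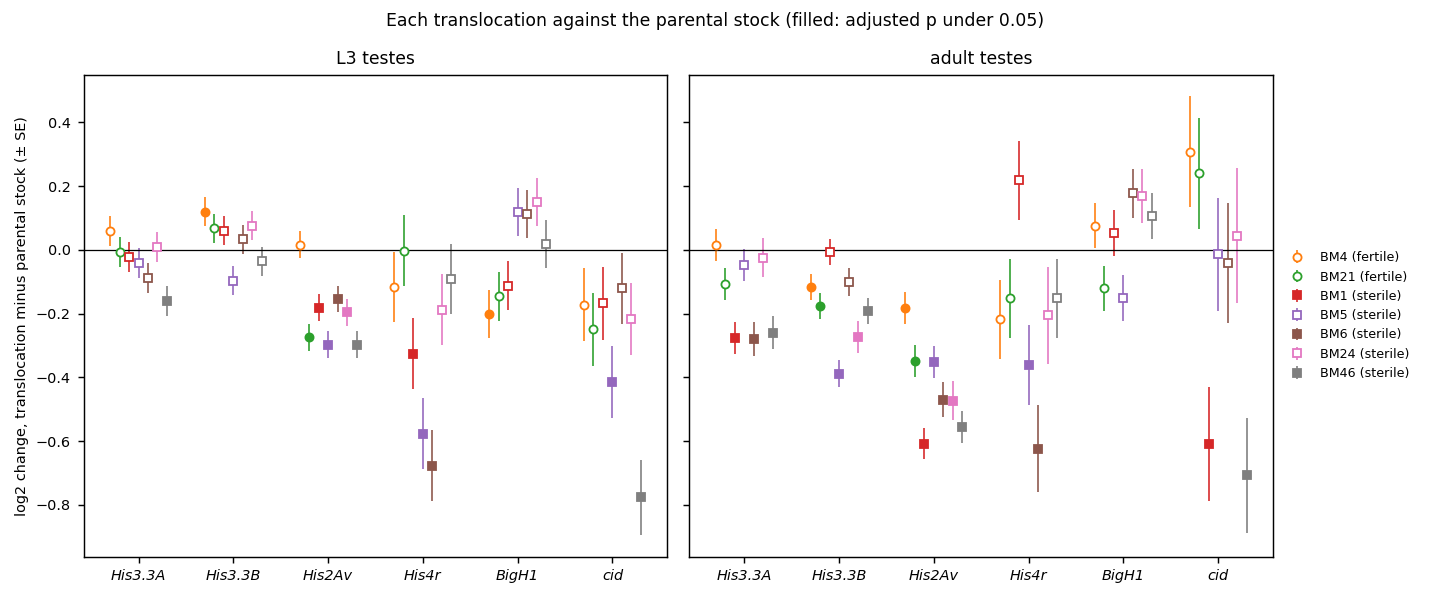
Log2 change from the parental stock (y axis, ± SE) of each variant histone gene in the 7 translocation lines, in L3 (left) and adult testes (right); filled symbols have an adjusted p under 0.05, circles are fertile and squares sterile lines. Adult His2Av is filled in all 7 lines, BigH1 in none, and cid in BM1 and BM46.

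Whether the change from L3 to adult differed between a translocation and the parental stock was tested directly, in 1 fit of the 61 libraries; this comparison was added after the values had been seen. It was called in 11 of 42 tests, 10 of them a larger fall in the translocation line. Calls in that direction took 2.86% of all genes in BM21, 5.29% in BM46, 5.85% in BM4, 7.85% in BM5, 8.57% in BM6, 10% in BM24 and 16% in BM1, and calls in either direction 5.32% to 26.8%. His2Av fell further in BM1 (−0.41 ± 0.06, adjusted p = 3.16e-06), BM6 (−0.31 ± 0.06), BM24 (−0.27 ± 0.07), BM46 (−0.25 ± 0.06) and BM4 (−0.17 ± 0.06, adjusted p = 0.0491, with 0.0506 to 0.126 in the alternatives that ended the call). His3.3B fell further in BM24 (−0.34 ± 0.06), BM5 (−0.28 ± 0.06), BM21 (−0.22 ± 0.06, adjusted p = 0.0676 with all libraries) and BM4 (−0.21 ± 0.06), and His3.3A in BM1 (−0.24 ± 0.06). His4r in BM1 differed the other way, as did 10.8% of all genes there, by 0.56 ± 0.17 (adjusted p = 0.0111; 0.0547 with library totals alone).

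The third comparison set the 5 sterile against the 3 fertile lines, parental stock included, with the line as the replicate. None of the 6 genes was called at either stage, where calls took 2.79% of 13595 genes in adults and 5.53% of 13132 in L3. In adults His2Av came nearest, with line means of 109.8 to 132 CPM in sterile and 132 to 169.5 in fertile lines. The change was −0.30 ± 0.09 (edgeR, unadjusted p = 0.0097, adjusted p = 0.112), and DESeq2 gave an adjusted p of 0.0412. The 95% interval of the edgeR change was −0.48 to −0.12. Intervals here are a normal multiple of the SE and are narrower than the test implies. BM5, the highest sterile line, and BM21, the lowest fertile line, had overlapping libraries. Intervals of the other 5 genes in adults were −0.30 to 0.05 for His3.3A, −0.27 to 0.10 for His3.3B, −0.41 to 0.26 for His4r, −0.11 to 0.27 for BigH1 and −0.84 to 0.04 for cid.

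In L3 testes the class changes were −0.32 ± 0.12 for His4r (unadjusted p = 0.0253, adjusted p = 0.164, the single gene of the 6 with an unadjusted p under 0.05), −0.14 ± 0.08 for His2Av, −0.17 ± 0.17 for cid, 0.17 ± 0.08 for BigH1, −0.07 ± 0.06 for His3.3A and −0.06 ± 0.06 for His3.3B. Fat body markers were 179.5 CPM at the median of fertile and 984 at that of sterile L3 libraries, summed over 7 genes that were all called higher, and their part in these values was not tested. The share of H3.3 reads from His3.3B differed by 0.924 points in adults (exact two-sided permutation p = 0.714) and 0.381 points in L3 (p = 0.589). The test of stage by class called none of the 6 genes and none of 14230 genes (edgeR; 1530 had an unadjusted p under 0.05, and DESeq2 called 193), with estimates from −0.24 for cid to 0.23 for His4r. Of the partner lists, 3 chaperone genes were lower in sterile adult lines, namely dre4 (−0.56 ± 0.10, adjusted p = 0.0272) and Ssrp (−0.47 ± 0.09), which encode FACT subunits, and Caf1-105 (−0.45 ± 0.09). DMAP1 was lower among the H2Av exchange genes (−0.58 ± 0.11, adjusted p = 0.0352), and no gene of the other 3 lists was called. Calls in this comparison took 2.79% of all genes in adults and 5.53% in L3.

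Across lines within a stage the 6 genes did not follow 1 order, as a description over 8 line means and with no test. His3.3A and His2Av varied together (Pearson r = 0.78 in adults and 0.60 in L3), as did His3.3A and cid (0.76 and 0.75) and His2Av and cid (0.66 and 0.72). The H3.3 pair had r = −0.25 in adults and 0.55 in L3, and BigH1 with His2Av −0.30 and −0.24. Over the 16 line and stage means, and among 10072 genes, the genes whose log2 CPM was most like that of a member were TfIIB (r = 0.99), CG7889 and scaf6 for His3.3A, CG8209 (0.95), hpRNA:CR46342 and MED7 for His3.3B, and CG5440 (0.99), btz and Taf6 for His2Av. For His4r they were Ufc1 (0.95), cype and HSPC300, for BigH1 MED30 (0.97), CG12391 and barc, and for cid Sas-4 (0.95), ncd and thr, whose products act at centrioles, spindles and separating chromatids. Of these 16 points, 8 are adult and 8 L3 means, so each r holds the difference between stages.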

How the data were processed

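Reads of poly(A)-selected, strand-marked libraries were processed by the authors; bcl2fastq 1.8, cutadapt, HISAT2 2.1.0 and featureCounts 1.6.1 are named, per the submitters' processing notes. The deposited values are raw counts per gene, with exon lengths. No source used here gives the genome build, the strand setting or the handling of reads with several matches.

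Libraries under 1000000 counts were left out. Counts were scaled by TMM, filtered with filterByExpr and tested with edgeR 4.0.16 (R 4.3.3) by the quasi-likelihood test, with Benjamini-Hochberg adjustment over all genes tested and a threshold of 0.05. Stage over 8 lines, class and their interaction used counts summed per line, and the other tests used libraries. SEs were derived from the F statistic of that test. The 95% intervals are a normal multiple of the SE, which is smaller than the multiple that test implies, so they are too narrow. Alternatives used DESeq2 1.42.0, limma 3.58.1 (voom), other scalings, no filter, all libraries, a replicate block and single libraries or lines left out. Scripts were tested on simulated counts.

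The 6 genes, the gene lists and the tests were chosen with earlier results of these data known. By rule, all 6 were named, with the 3 genes most alike to each in log2 CPM (prior count of 2, mean of at least 1), and the largest called rise and fall of each list. Hira, yem, Daxx, XNP, dom, cal1, tHMG1 and Ssrp were added after their values had been seen. Of the listed symbols 3 were found by a synonym. Replicate numbers were not treated as pairs.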

Additional observations from a re-analysis of the deposited data

Results flagged for a closer look

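In 7 of 98 groups of 4 libraries, 1 library stood apart from the other 3, where chance gives about 1 in 20 groups. BigH1 was at 75.4 CPM in adult BM46 replicate 1, against 92.5 to 94.4 in the others. His3.3A was at 221 CPM in L3 BM46 replicate 1 (others 195 to 196), at 206 in L3 BM6 replicate 3 (others 216 to 218) and at 241 in L3 parental replicate 1 (others 222 to 224). His3.3B was at 299.5 CPM in L3 BM1 replicate 2 (others 326 to 329.7). For cid, L3 BM21 replicate 3 was at 8.36 CPM (others 6.38 to 6.39). The His3.3B share of H3.3 reads was 39.3% in adult BM21 replicate 3 (others 37.5% to 37.7%).

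The fall from L3 to adult differed between a translocation line and the parental stock in 11 tests (edgeR, adjusted p under 0.05), all against the same 8 parental libraries. On the log2 scale His2Av differed by −0.41 in BM1, −0.31 in BM6, −0.27 in BM24, −0.25 in BM46 and −0.17 in BM4. His3.3B differed by −0.34 in BM24, −0.28 in BM5, −0.22 in BM21 and −0.21 in BM4, and His3.3A by −0.24 in BM1. His4r in BM1 differed by 0.56, the single value of the other sign.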

How the results depend on the processing

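Of 3390 values of a gene or a difference recomputed under an alternative, 3272 kept their side of the threshold and, where called, their direction, while 91 uncalled values changed sign; 64 lost the call, 53 gained one and 1 reversed. The fall of all 6 genes from L3 to adult over 8 lines stood under each alternative run. His4r in BM1 reversed with library totals alone (−0.35), and the cause was not tested. In sterile against fertile adult lines DESeq2 called 1 of the 6 genes, His2Av, where edgeR called 0. The difference of the His3.3B share between parental stages was 3.55 to 4.93 points with 1 library left out, and 3.71 to 4.41, no longer past the threshold (exact permutation p = 0.0571), without any 1 of the L3 libraries. The stages still did not overlap there, and p moves in coarse steps with so few libraries. With all libraries, His3.3B in adult BM21 (adjusted p = 0.103) and BM4 (adjusted p = 0.316) and His4r in adult BM5 (adjusted p = 0.109) were no longer called.

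Same-numbered replicates did not deviate together, with correlations of −0.26 to 0.34, so the numbers were read as names. With a replicate block, the stage change of His4r in BM5 was called (−0.21, adjusted p = 0.0258), and cid in BM24 (−0.38, adjusted p = 0.0594) and L3 His3.3B in BM4 (0.12, adjusted p = 0.0507) were not.

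Counts of calls over all genes moved by more than 1.5 times in few fits. Sterile against fertile adult lines gave 379, then 1598 with DESeq2, 48 with the row of the well code as a covariate, and 109 to 378 with 1 line left out. L3 lines gave 726, then 1403, 237 and 404 to 851. The interaction gave 0, then 193 with DESeq2, 8 without the libraries rich in accessory gland transcripts, and 4 without BM21 or BM5. Without those libraries adult BM6 fell from 6325 to 3743 calls, and the stage differences of BM1 from 3605 to 2384 and of BM6 from 2086 to 958. With all libraries adult BM4 went from 3487 to 2265 and BM21 from 3788 to 2495. Depth limits cid most, at 16 to 186 counts a library.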
